A study of Mus musculus with 7 samples.

Results

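Nlrp5-ps, 9030624G23Rik, Ajap1 and St6gal2 were near silent in cultured wild-type mouse neural stem cells (NSCs) and had more counts in NSCs that lacked Smchd1. These 4 genes, of the 55335 genes listed in the count files, were chosen by their raw counts, few in every wild-type sample and more in every mutant sample. The difference between the genotypes was therefore the ground for the choice, and it is given here as a description with no test. All 4 genes passed the filter on low counts, which they could do through the mutant samples alone. Every mutant sample was above every wild-type sample in log-CPM for all 4, and the same held for 2.52% of all 13305 genes that passed the filter.

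NSCs are precursor cells of the brain, kept dividing here in NeuroCult medium with EGF and bFGF. The WT group (n = 4) was labelled Smchd1 Wild-type and the *Smchd1*-null group (n = 3) Smchd1MommeD1, a loss-of-function allele, and all samples were from the FVB/N strain. Unamplified cDNA of polyadenylated RNA was read on nanopore flow cells. Batch 1 held WT replicate 2 with *Smchd1*-null replicates 1 and 2, batch 2 held WT replicates 3 and 4 with *Smchd1*-null replicate 3, and WT replicate 1 was in both, its runs already summed. The labels used here gave neither the age nor the sex of the animals and did not say whether each sample came from a separate animal, so the spread between samples may be technical.

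SMCHD1 is a chromatin protein that keeps genes silent on the inactive X chromosome, in imprinted regions and in gene clusters such as the protocadherins. Many of the genes it is known to repress are tied to 1 stage or tissue, such as the germ line or the placenta, and are off in most other cells. Its loss in mice disturbs X inactivation and imprinting.

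Library sizes ranged from 2.74 to 7.74 M counts, and values are given as raw counts and as counts per M of scaled library size (CPM, scaled by trimmed mean of M-values). The floor of detection was set at 3 counts, which were 0.399 to 1.13 CPM depending on the library. Smchd1 itself had 274, 254, 285 and 325 counts in WT replicates 1 to 4 and 46, 96 and 85 in *Smchd1*-null replicates 1 to 3, or 63.4 ± 9.09 CPM (SD, n = 4) against 16.1 ± 2.97 CPM (SD, n = 3). Its log2 fold change by limma was -2.15 (SE 0.18, adjusted p = 1.10e-04). Xist had at most 2 counts in a sample, and Ddx3y, a Y-linked gene, had 101 to 351. Summed markers of neural stem cells, led by Fabp7 and Vim, stood at 8873 to 13725 CPM in WT and 8530 to 10036 CPM in *Smchd1*-null samples. WT replicate 4 stood apart in oligodendrocyte genes, with 561 counts of Mbp, which encodes a component of myelin and was named after its values were seen.

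Nlrp5-ps is a transcribed unprocessed pseudogene related to Nlrp5, an oocyte gene whose protein is needed by the early embryo. It lies on the minus strand of chr7:14530652-14622479 (GRCm38) and has 14 merged exons of 4335 bases in all. WT replicates 1 to 4 had 0, 0, 3 and 5 counts, and *Smchd1*-null replicates 1 to 3 had 9, 32 and 15. The groups did not overlap: the highest WT sample was at 0.857 CPM and the lowest *Smchd1*-null sample at 3.25 CPM, a ratio of 3.79. For the 2 WT samples with no count, the floor of 3 counts was 0.733 and 0.666 CPM. The exact 95% upper limits of these samples were 0.901 and 0.819 CPM. The WT mean was 0.411 ± 0.475 CPM (SD, n = 4), that of the mutant samples 3.63 ± 0.550 CPM (SD, n = 3), and the fitted log2 fold change was 3.57 (SE 0.62). Summed over libraries, 8 counts in WT stood against 56 in *Smchd1*-null, a rate 8.63 times as high (exact 95% interval 4.09 to 21.0). Such intervals cover counting error only, neither the spread between samples nor the choice of the gene from these counts.

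9030624G23Rik is a protein-coding gene known by its clone name, on the minus strand of chr12:24043202-24097246, with 4 exons of 2245 bases. Its counts were 2, 4, 2 and 1 in WT and 10, 29 and 19 in *Smchd1*-null samples. In CPM the WT samples ran from 0.171 to 0.888 and the *Smchd1*-null samples from 3.75 to 4.11, so that the lowest *Smchd1*-null sample was 4.22 times the highest WT sample. This was the widest gap and the smallest *Smchd1*-null spread of the 4 genes, with a mean of 0.518 ± 0.293 CPM (WT, SD, n = 4) and of 3.91 ± 0.185 CPM (mutant, SD, n = 3). The log2 fold change was 2.69 (SE 0.45), and the summed counts, 9 against 58, gave a rate ratio of 7.95 (exact 95% interval 3.91 to 18.2).

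Ajap1 encodes a membrane protein of adherens junctions, the contacts that hold neighbouring cells together through cadherins. It lies on the minus strand of chr4:153373221-153482811 and has 6 exons of 3048 bases. Its counts were 0, 1, 5 and 0 in WT and 9, 29 and 26 in *Smchd1*-null samples. WT replicate 3 was the high WT sample, at 1.31 CPM, with the other WT samples at 0 to 0.222 CPM, and the *Smchd1*-null samples stood at 3.38, 3.86 and 5.63 CPM. The mean level was 0.383 ± 0.627 CPM over the WT samples (SD, n = 4) and 4.29 ± 1.18 CPM over the mutant samples (SD, n = 3). The groups were 2.58 times apart at their nearest samples, with a log2 fold change of 3.50 (SE 0.66). Of the 4 genes, Ajap1 had the highest rate ratio of summed counts, 64 against 6, at 13.2 (exact 95% interval 5.72 to 37.2).

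St6gal2 encodes a sialyltransferase, an enzyme of the Golgi that caps galactose-ended sugar chains with sialic acid and is known mainly from brain. It lies on the plus strand of chr17:55445382-55514581, with 7 exons of 7375 bases, 15.8 Mb from Smchd1 on the same chromosome. Its counts were 1, 1, 5 and 2 in WT and 9, 18 and 18 in *Smchd1*-null samples. WT replicate 3 was again high, at 1.31 CPM against 0.222 to 0.343 CPM in the other WT samples. The *Smchd1*-null samples were at 3.38, 2.40 and 3.90 CPM, and the nearest samples of the 2 groups were 1.83 times apart, the narrowest gap of the 4 genes. Means were 0.530 ± 0.523 CPM (SD, n = 4) and 3.22 ± 0.762 CPM (SD, n = 3), with a log2 fold change of 2.26 (SE 0.54) and a rate ratio of 6.16 for 45 summed counts against 9 (exact 95% interval 2.98 to 14.3).

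**Figure D1:**
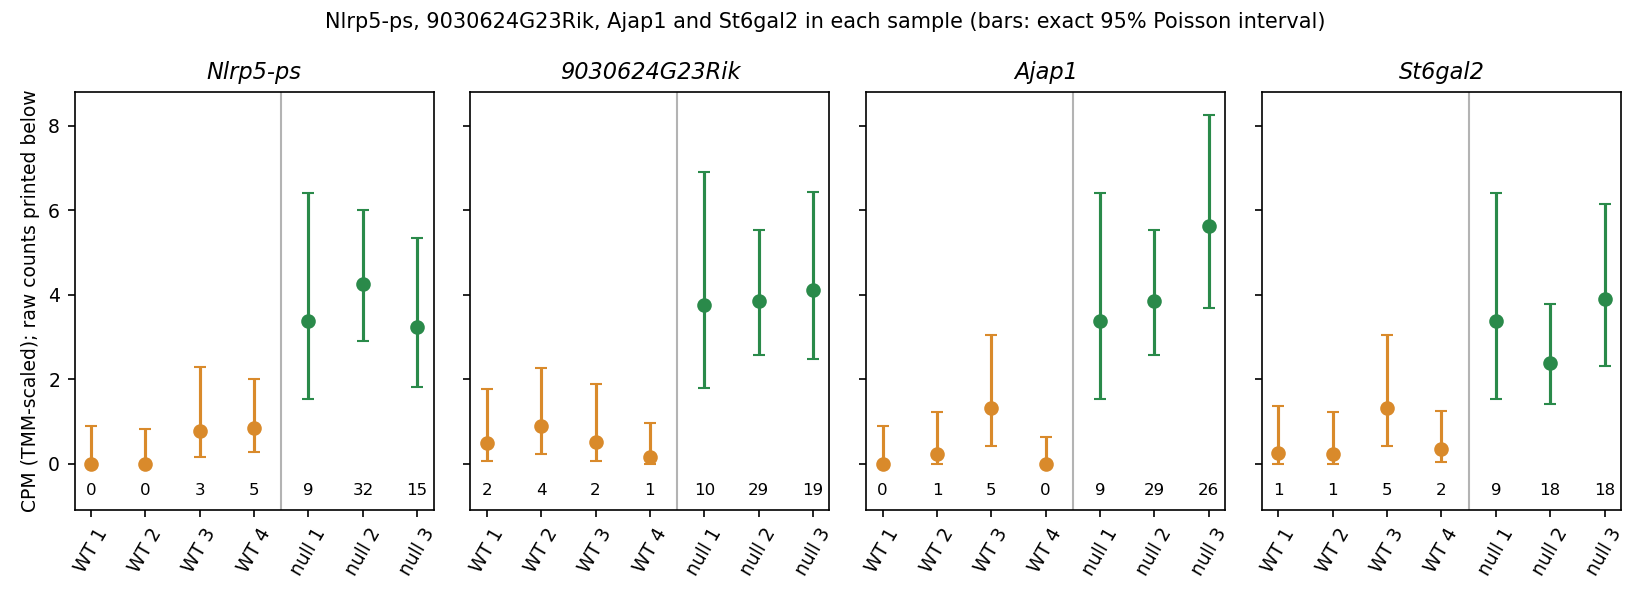
CPM (vertical axis) of Nlrp5-ps, 9030624G23Rik, Ajap1 and St6gal2 in each of the 4 WT (orange) and 3 *Smchd1*-null (green) samples, 1 panel per gene, with exact 95% counting intervals as bars and raw counts printed below the points. The *Smchd1*-null samples lie between 2.40 and 5.63 CPM, and no WT sample is above 1.31 CPM.

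In total the 4 genes had 3, 6, 15 and 8 counts in WT replicates 1 to 4 and 37, 108 and 78 in *Smchd1*-null replicates 1 to 3. As summed CPM, the *Smchd1*-null samples were close together at 13.9, 14.4 and 16.9, whereas WT replicate 3 at 3.93 was well above the other WT samples at 0.733, 1.33 and 1.37. Without WT replicate 3 the log2 fold changes of Nlrp5-ps, Ajap1 and St6gal2 were 4.46, 4.68 and 3.01, and that of 9030624G23Rik was 2.72. Without WT replicate 4, the library with high Mbp, Nlrp5-ps, 9030624G23Rik and Ajap1 had 3.84, 2.49 and 3.25, and St6gal2 did not pass the filter. In bulk RNA, expression in a few cells and a low level in every cell cannot be told apart.

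Levels were compared between genes per kb of exon. In *Smchd1*-null samples 9030624G23Rik was at 1.74 CPM per kb (range 1.67 to 1.83) and Ajap1 at 1.41 CPM per kb (range 1.11 to 1.85), so this pair overlapped. Nlrp5-ps followed at 0.837 CPM per kb (range 0.749 to 0.982) and St6gal2 at 0.437 CPM per kb (range 0.325 to 0.528), each below the range of the gene before it. Among the 36857 genes with a count, these levels were at percentiles 67.8, 65.4, 59.8 and 52.7. In WT the order was the same, with 0.231, 0.126, 0.0948 and 0.0719 CPM per kb, at percentiles 44.6, 36.1, 32.0 and 28.1. In WT each gene lay within the spread of its neighbours in the order.

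The order of the genotypes within each batch followed from the choice of the genes, so only the levels are described by batch. In batch 1, WT replicate 2 had 0, 0.888, 0.222 and 0.222 CPM of Nlrp5-ps, 9030624G23Rik, Ajap1 and St6gal2, where the mean of *Smchd1*-null replicates 1 and 2 was 3.82, 3.81, 3.62 and 2.89 CPM. In batch 2, the mean of WT replicates 3 and 4 was 0.822, 0.348, 0.655 and 0.827 CPM, where *Smchd1*-null replicate 3 had 3.25, 4.11, 5.63 and 3.90 CPM. WT replicate 1, which was in both batches with its runs summed, is left out here. Without it each batch held a single sample of 1 genotype, so no test was made within a batch.

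How the counts of a gene were spread over the libraries of 1 genotype was set beside the library sizes, as a description with no test, since the choice of the genes used the count of every sample. In the *Smchd1*-null samples, 9030624G23Rik had 10, 29 and 19 counts where its total of 58, shared out by library size, gives 10.4, 29.5 and 18.1. Nlrp5-ps had 9, 32 and 15 counts beside 10.1, 28.4 and 17.5, and St6gal2 had 9, 18 and 18 beside 8.10, 22.8 and 14.05. Ajap1 had 9, 29 and 26 beside 11.5, 32.5 and 19.98, with replicate 3 above its share. In WT, 5 of the 6 counts of Ajap1 were in replicate 3, where library size gives 1.25. All 8 counts of Nlrp5-ps were in WT replicates 3 and 4, where library size gives 1.67 and 2.56.

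**Figure D2:**
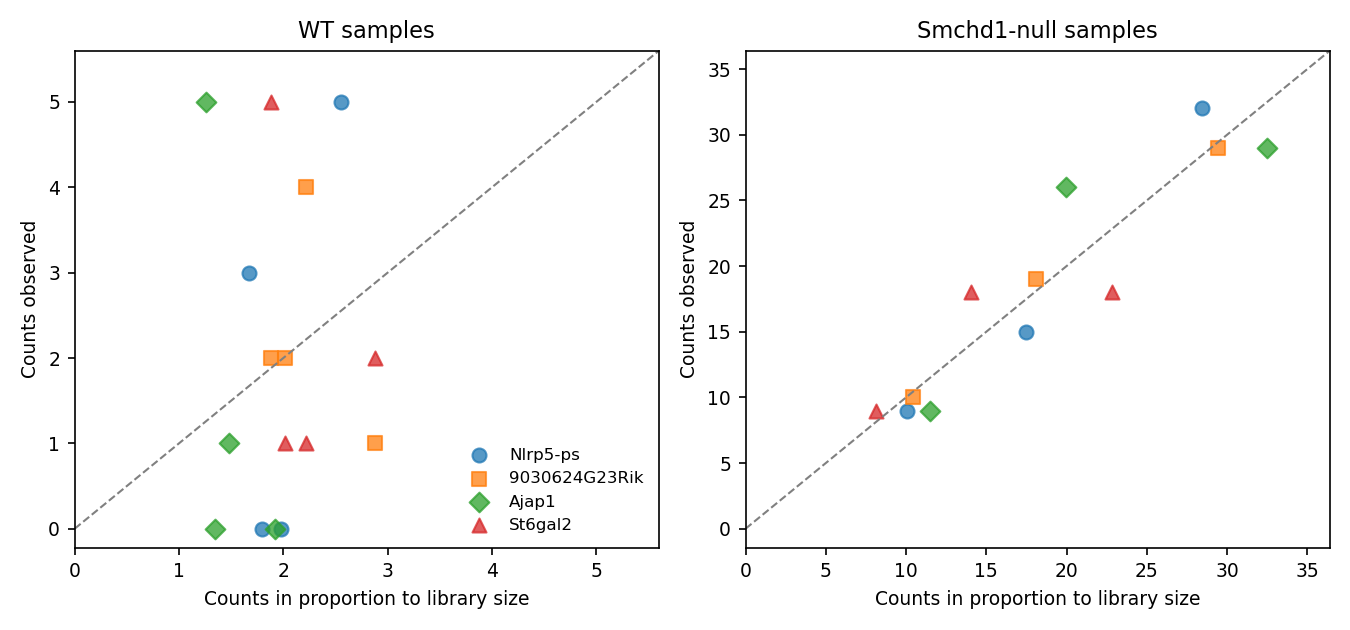
Raw counts of each gene in each library (vertical axis) against the counts in proportion to library size for the same total (horizontal axis), with WT samples on the left and *Smchd1*-null samples on the right. The dashed diagonal marks counts in proportion to library size, close to which the 10, 29 and 19 counts of 9030624G23Rik in *Smchd1*-null samples lie, and the 5 counts of Ajap1 in WT replicate 3 lie above it.

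RefSeq promoter entries were found for Ajap1 and St6gal2, and these are shown because they are the sequence just before the start of 2 of the 4 genes. The sequences are the 250 bases before the RefSeq transcript start (GRCm38.p6), written 5′ to 3′ on the strand of the gene, with capitals at GGGCGG, the core of the GC box, on either strand.
Ajap1, chr4:153482831-153483080, minus strand: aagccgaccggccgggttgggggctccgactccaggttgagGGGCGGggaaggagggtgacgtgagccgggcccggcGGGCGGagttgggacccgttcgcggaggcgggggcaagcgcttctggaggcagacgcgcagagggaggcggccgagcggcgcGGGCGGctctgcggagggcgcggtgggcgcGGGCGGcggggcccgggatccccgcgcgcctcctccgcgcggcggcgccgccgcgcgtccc
St6gal2, chr17:55445132-55445381, plus strand: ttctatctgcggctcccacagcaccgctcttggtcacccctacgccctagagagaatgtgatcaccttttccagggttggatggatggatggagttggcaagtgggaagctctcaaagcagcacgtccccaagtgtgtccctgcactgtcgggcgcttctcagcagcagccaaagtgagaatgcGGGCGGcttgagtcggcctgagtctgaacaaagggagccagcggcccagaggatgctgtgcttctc

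The promoters differed in composition. That of Ajap1 held 43 CpG dinucleotides and 81.2% G and C, more CpG than 99.3% of the 32851 promoter windows of the same length. The St6gal2 promoter held 10 CpG and 58.4% G and C, more CpG than 62.2% of the windows, where the median window had 6 CpG and 52.4% G and C. GGGCGG occurred 4 times in the Ajap1 window and 1 time in the St6gal2 window, and 32.7% of all windows held it. A further 4 motifs, searched on both strands, were in neither window. These were CCAAT, which 33.8% of all windows held, and the TATA box core TATAAA with 12.4%. The E-box CACGTG was in 6.02%. The last was the stretch TTCAGCACC of the REST site, in 0.301%. A match in letters describes the window and does not show a bound site.

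The genes around each locus were examined because SMCHD1 is known to act on whole clusters. Within 500 kb of the 4 genes, 103 other genes were annotated, 63 had at least 1 count and 14 passed the filter. None of the 14 differed between the genotypes at an adjusted p under 0.25 by limma, where 1.08% of all 13305 tested genes did (144 genes), and none by edgeR or DESeq2, where 0.0601% and 0.241% did. At an unadjusted p under 0.05 the neighbours had 1 gene by limma and 0 by edgeR and DESeq2, beside 13.9%, 5.07% and 4.46% of all tested genes. Their log2 fold changes ran from -0.18 to 0.57, with a median of 0.14 beside 0.0049 for all tested genes. When WT replicate 2 or *Smchd1*-null replicate 3 was left out, 2 of the neighbours passed the 0.25 threshold, as did 22.7% and 23.5% of all tested genes.

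Nlrp5-ps stood among 46 annotated neighbours, of which 21 had a count and none passed the filter. They held 43 counts in WT and 45 in *Smchd1*-null samples over all libraries. The nearest detected gene on either side, the homeobox pseudogenes Obox4-ps1 (11.98 kb away) and Obox3-ps7 (11.6 kb away), had a single count each, in *Smchd1*-null replicates 2 and 1. The surroundings of 9030624G23Rik were likewise nearly silent: Gm5954 (26.2 kb) had 1 count in each of *Smchd1*-null replicates 1 and 2, and Gm47446 (79.1 kb) had 2 counts in *Smchd1*-null replicate 3. The only neighbours of 9030624G23Rik that could be tested were Taf1b, a factor of ribosomal RNA transcription, at 401 kb with -0.18 (SE 0.21, adjusted p = 0.702) as log2 fold change, and Grhl1 at 475 kb with 0.03. Low counts limit this comparison, since a rise of a few counts in a nearly silent gene would not have been detectable.

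Ajap1 lies alone. On the side of lower coordinates the nearest gene with a count was the pseudogene Gm13172 at 695 kb, with 5 counts in WT and 1 in *Smchd1*-null samples. On the other side was A430005L14Rik at 474 kb, with 179, 234, 185 and 200 counts in WT and 153, 419 and 263 in *Smchd1*-null samples. It had the smallest adjusted p of all tested neighbours, at 0.342, with 44.6 ± 7.67 CPM over the WT samples (SD, n = 4), 56.7 ± 0.855 CPM over the mutant samples (SD, n = 3) and 0.32 (SE 0.14) as log2 fold change. Dffb, at 482 kb, had a log2 fold change of 0.28. Ajap1 itself, chosen for its difference between the genotypes, had 3.50 in the same fit.

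St6gal2 had the most active surroundings, with 9 tested neighbours. The pseudogene CT009635.5, 56.7 kb away, had 12, 11, 12 and 23 counts in WT and 8, 30 and 10 in *Smchd1*-null samples, with a log2 fold change of 0.14. On the other side, Pot1b, a protein of telomere ends, lies 137 kb away and had 23, 21, 22 and 33 counts against 14, 39 and 15, with a log2 fold change of -0.17 (SE 0.28). The largest value among the 9 was that of Shd, at 456 kb with 0.57 (SE 0.31, adjusted p = 0.405).

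**Figure D3:**
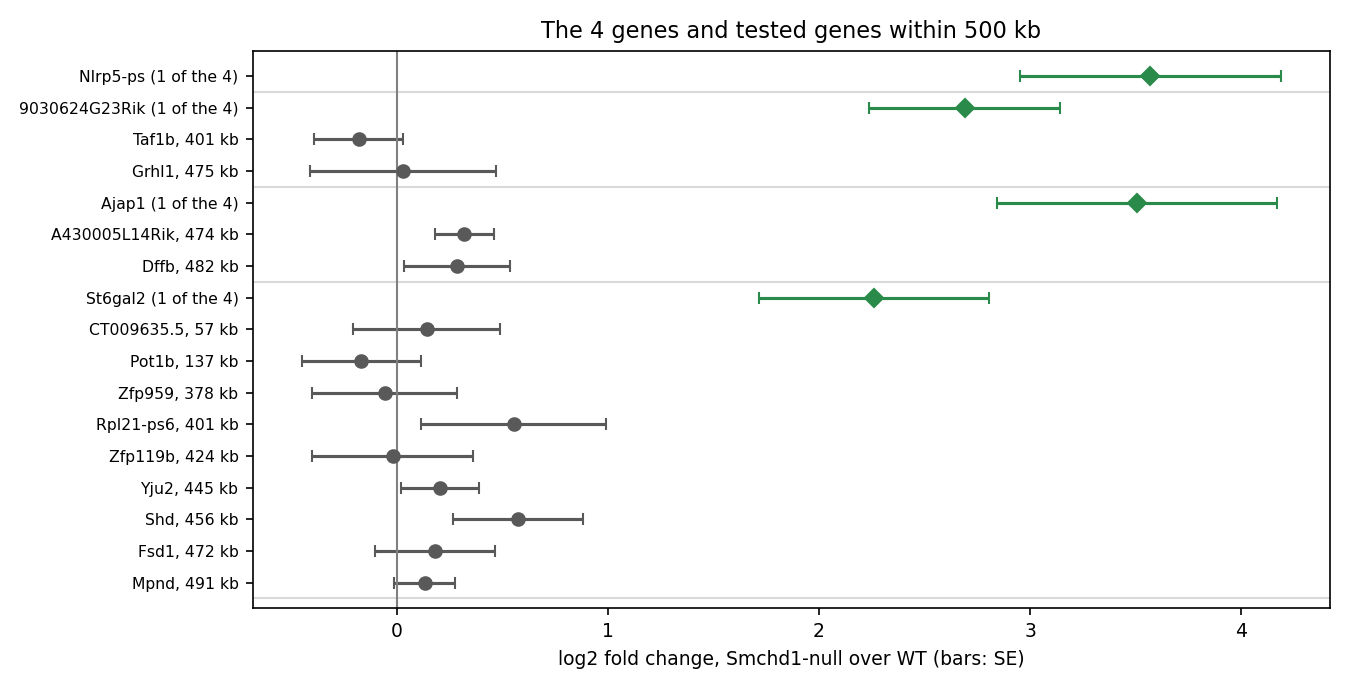
Log2 fold change, *Smchd1*-null over WT, with its standard error as a bar, of the 4 genes (green diamonds) and of tested genes within 500 kb (grey points), in 1 row per gene with its distance in kb, 1 tested gene not being shown. The tested neighbours, 14 of 103 annotated, lie between -0.18 and 0.57, and Nlrp5-ps has no tested neighbour. Each of the 4 genes lies above 2, but they were chosen for being higher in *Smchd1*-null samples, so their place is no comparison with the neighbours.

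Reads of near-identical genes can be assigned to the wrong copy, so transcripts of the 4 genes were compared with all other transcripts by blastn (at least 90% identity over at least 200 bases). Ajap1 and St6gal2 matched no other gene and overlapped none, so no other gene shares their reads in this way. Nlrp5-ps matched 5 genes, all on chromosome 7. One of them, the vomeronasal receptor gene Vmn1r90, lies on the same strand at chr7:14555474-14563506 and shares 1757 exon bases with Nlrp5-ps. Vmn1r90 had 1 count in each WT sample and 4, 6 and 3 in *Smchd1*-null samples. It was the 1 gene of the 63 neighbours with a count that had the counts pattern of the 4 genes. Over all genes with a count and fewer than 10 in every WT sample, the share was 0.804%. The 63 neighbours also held genes with 10 or more counts in a WT sample, which could not have the pattern, so the bases differ. Reads of this shared stretch cannot be told apart between the 2 genes, so their counts are uncertain. Nlrp5, 97.1% identical over 1025 bases, had 1, 0, 1 and 0 counts in WT and 0, 1 and 0 in *Smchd1*-null samples.

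9030624G23Rik belongs to a large group of similar transcripts. Its transcript matched 55 genes, all on chromosome 12 between 17.9 and 24.3 Mb, of which 45 had a count and 4 were tested. Over the 55 genes the counts were 149, 124, 119 and 154 in WT and 110, 712 and 154 in *Smchd1*-null samples. The high value of *Smchd1*-null replicate 2 was 424 counts of a single gene, the lincRNA 2410018L13Rik, which had at most 1 count in any other sample. Without it the sums were 148, 123, 118 and 154 in WT and 110, 288 and 154 in *Smchd1*-null samples. These are raw sums, with 110 in the smallest library and 288 in the largest. Library sizes were 3.91, 4.6, 3.87 and 5.85 M counts in WT and 2.74, 7.74 and 4.61 M in *Smchd1*-null samples. The overlap of the sums is therefore no comparison of levels between the genotypes, and none was made for the 55 genes together. 9030624G23Rik itself was chosen for having no overlap. Gm4425, with 6, 6, 2 and 3 against 9, 12 and 10 counts, and Gm9269, with 3, 2, 1 and 1 against 5, 4 and 5, had the same counts pattern. They were 2 of the 45 with a count, where 0.804% of all genes with a count and fewer than 10 in every WT sample had it. The 45 also held genes with 10 or more counts in a WT sample, which could not have the pattern, so the bases differ. Of the 4 tested genes, 1 passed the 0.25 threshold, beside 1.08% of all tested genes and 0.609% called lower. It was Asap2, lower in *Smchd1*-null samples, at 3.85 ± 1.29 CPM (SD, n = 3) against 9.11 ± 3.88 CPM (SD, n = 4), a difference of -1.34 in log2 (SE 0.36, adjusted p = 0.233), and the adjusted p was 0.858 by edgeR and 0.650 by DESeq2. The other tested genes, Gm49327, Gm49329 and Zfp125, had log2 fold changes of -0.03, 0.67 and 1.05 (adjusted p = 0.973, 0.381 and 0.327 by limma). Over the 4 tested genes the median log2 fold change was 0.32. Which copy a read came from was decided by its primary alignment, and the part of this in the values of 9030624G23Rik was not tested. Vmn1r90, Nlrp5, 2410018L13Rik, Gm4425, Gm9269, Asap2, Gm49327, Gm49329 and Zfp125 were named after their values were seen, as were Taf1b, Grhl1, Dffb and Shd among the neighbours.

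**Figure D4:**
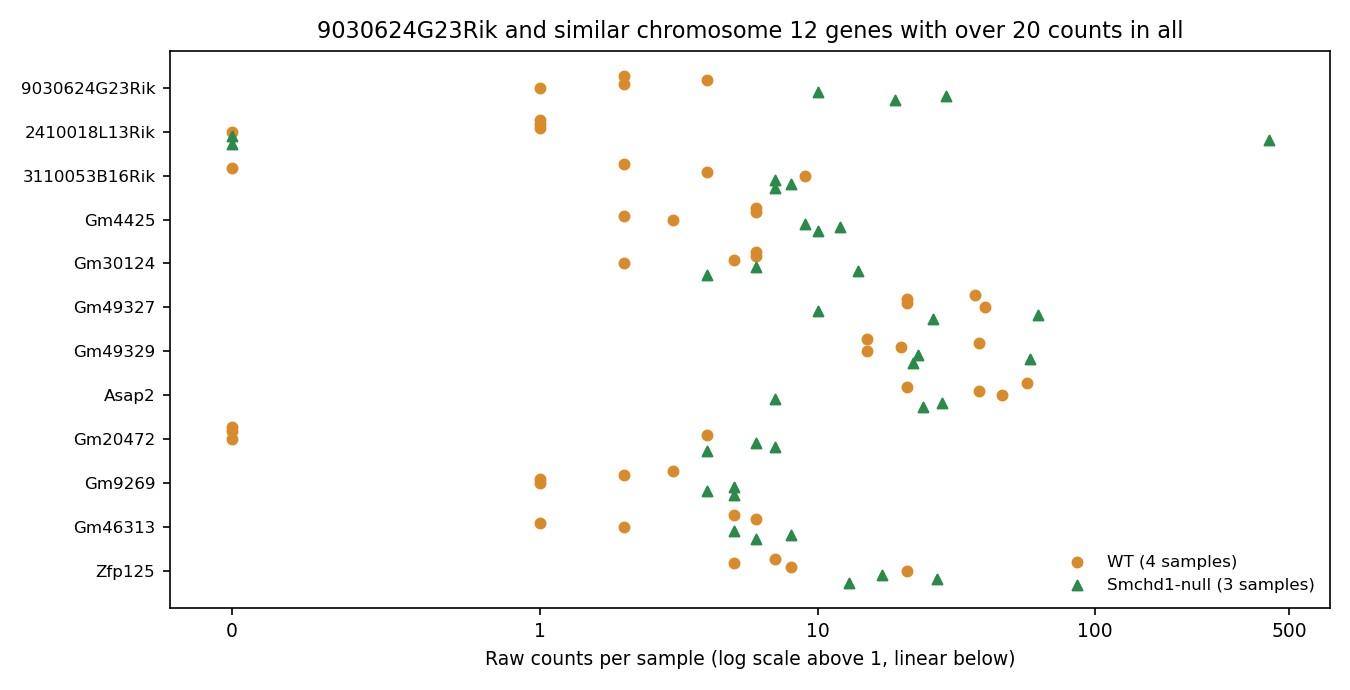
Raw counts per sample, on a log axis that is linear below 1, of 9030624G23Rik and of the similar genes with over 20 counts in all, for WT (orange circles) and *Smchd1*-null samples (green triangles). The 424 counts of 2410018L13Rik in 1 *Smchd1*-null sample stand far to the right, and 9030624G23Rik, Gm4425 and Gm9269 have no overlap between the genotypes.

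The partners of the gene products were examined to place the 4 genes among those they work with. Over 124 genes in lists of families, partners and cell types, 62 were tested and 1 passed an adjusted p of 0.25 by limma, where 1.08% of all tested genes did. At an unadjusted p under 0.05, limma had 15, edgeR 11 and DESeq2 8 of the 62, or 24.2%, 17.7% and 12.9%, beside 13.9%, 5.07% and 4.46% of all tested genes. The 1 call became 16 without WT replicate 2 and 20 without *Smchd1*-null replicate 3, when 22.7% and 23.5% of all tested genes passed. Of 19 sialyltransferase genes, 12 were tested. St3gal6 fell, with 25.3 ± 5.48 CPM over the WT samples (SD, n = 4), 16.5 ± 4.93 CPM over the mutant samples (SD, n = 3) and -0.88 (SE 0.24) as log2 fold change (adjusted p = 0.233), where 0.609% of all tested genes were called lower. edgeR and DESeq2 did not make this call. St3gal3, the most abundant of the list, was at 24.5 and 26.8 CPM (adjusted p = 0.519). St6gal1, the closest relative of St6gal2 and named after its values were seen, was at 13.3 ± 4.30 CPM in WT and 10.1 ± 1.67 CPM in *Smchd1*-null samples (log2 fold change -0.31, SE 0.25, adjusted p = 0.561 by limma). The summed level of the sialyltransferases was 167 to 183 CPM in WT and 167 to 200 CPM in *Smchd1*-null samples, so the 2.40 to 3.90 CPM of St6gal2 was a small share of it.

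Among 9 genes of sialic acid supply, 6 were tested and 0 passed, 0 also at an unadjusted p under 0.05 by limma. Nans, which makes the phosphorylated sialic acid, had a log2 fold change of 0.19 (adjusted p = 0.479), and Cmas, which activates it for transfer, had -0.10 (adjusted p = 0.774). Of 13 adherens junction partners of Ajap1, 12 were tested and 0 passed an adjusted p of 0.25 (1.08% of all tested genes), with 3 at an unadjusted p under 0.05 by limma (13.9% of all). Bsg, which encodes basigin, a binding partner of the AJAP1 protein, was at 272 CPM in WT and 299 CPM in *Smchd1*-null samples (log2 fold change 0.29, adjusted p = 0.400). Ctnna1, the catenin that links cadherins to actin, was at 169 and 132 CPM (log2 fold change -0.45, adjusted p = 0.275).

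The relatives of Nlrp5-ps were mostly silent. Of 25 genes of the NLRP family and the subcortical maternal complex, the oocyte complex that holds the NLRP5 protein, 2 passed the filter, and 5 had no count in any sample (Nlrp12, Nlrp2, Nlrp4d, Nlrp4e and Nlrp4g). The 2 tested genes were Tle6, at 38.3 and 48.7 CPM (log2 fold change 0.45, adjusted p = 0.322), and Zbed3, with 0.03 (adjusted p = 0.952). Nlrp4a, named after its values were seen, had 20 counts in *Smchd1*-null replicate 2 and 0 in every other sample. Every other listed NLRP gene had at most 5 counts in a sample, where Nlrp5-ps had 9 to 32 in *Smchd1*-null samples.

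The summed levels of cell type markers overlapped between the genotypes in every list. Neuron markers summed to 739 to 880 CPM in WT and 836 to 884 CPM in *Smchd1*-null samples, with Gap43 (363 and 447 CPM) and Map2 (350 and 343 CPM) the most abundant. Astrocyte markers, led by Gja1 and Aldh1l1, summed to 123 to 247 CPM in WT and 99.5 to 168 CPM in *Smchd1*-null samples. Oligodendrocyte lineage markers, led by Cnp and Olig1, summed to 217 to 792 CPM in WT, the highest being WT replicate 4, and 258 to 261 CPM in *Smchd1*-null samples. Of the 33 markers of these lists and of neural stem cells, 29 were tested and 0 passed, with 9 at an unadjusted p under 0.05 by limma (13.9% of all tested genes). Microglia (0.787 to 2.06 CPM in WT, 0.375 to 0.799 CPM in *Smchd1*-null), endothelial and mural (0.444 to 5.32 and 1.13 to 3.33 CPM) and fibroblast markers (0 to 3.26 and 1.13 to 1.73 CPM) were near the floor, with Tmem119, C1qa and Lum at 0 counts. Germ cell and oocyte markers summed to 2.23 to 4.22 CPM in WT and 3.25 to 4.50 CPM in *Smchd1*-null samples, with Nobox at 0 counts. The part of other cell types in the counts of the 4 genes was not tested.

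To place the 4 genes among all genes, every gene with their counts pattern was counted: fewer than 10 counts in every WT sample and more counts in every *Smchd1*-null sample than in any WT sample. The pattern held for 180 of the 22401 genes with a count and fewer than 10 counts in every WT sample (0.804%), of which 75 were protein-coding and 72 pseudogenes. The mirror pattern, low in every *Smchd1*-null sample and higher in every WT sample, held for 81 of 21929 genes (0.369%), of which 30 were protein-coding and 20 pseudogenes. These are counts with no test, and when CPM took the place of raw counts they were 363 and 236. With single libraries left out the 2 counts ranged from 264 to 1199 and from 115 to 471, with 1199 when *Smchd1*-null replicate 1, the smallest library, was left out. By mean CPM in *Smchd1*-null samples Ajap1 was the third of the 180, 9030624G23Rik the fourth, Nlrp5-ps the sixth and St6gal2 the ninth.

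The others among the first 10 had higher counts summed over the WT samples than any of the 4 genes, whose few WT counts were part of their choice. Cxcl14, a chemokine gene, led with 4, 2, 4 and 6 counts in WT and 17, 45 and 25 in *Smchd1*-null samples. Pcdhb8, a gene of the clustered protocadherins, had 7, 3, 2 and 9 against 16, 32 and 28. Ereg, which encodes the growth factor epiregulin, had 5, 3, 6 and 5 against 10, 9 and 20. Tesc (7, 9, 6 and 7 against 12, 25 and 16), Gm18025 (2, 4, 4 and 5 against 12, 24 and 11) and Dcaf12l1 (2, 5, 2 and 1 against 6, 17 and 24) completed the 10. Past the first 10, WT counts as low as those of the 4 genes were also found. Tchh, at rank 18 and named after its values were seen, had 1, 0, 0 and 1 against 8, 19 and 9. At the limit of 10 counts, Pcdhb8 was just inside with 9 counts in WT replicate 4, and D130058E05Rik was just outside with 10, 6, 3 and 5 counts against 11, 43 and 18.

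The genes whose profile over the 7 samples was most like that of each of the 4 were found by Pearson's r of log-CPM, as a description. Since all 4 genes were chosen for 1 pattern, r between them was high, from 0.787 to 0.977, and the points share the same 7 libraries. For 9030624G23Rik the closest was Zfp992, a zinc finger gene, at 0.997, with 8, 12, 8 and 6 counts in WT and 19, 58 and 37 in *Smchd1*-null samples, then Cnnm4 at 0.973 and Tesc at 0.972. For Nlrp5-ps these were Rrnad1 at 0.977, Trpm6 at 0.968 and Pitpnm2 at 0.966. Ajap1 was closest to St6gal2 at 0.977, Slc38a1 at 0.974 and Ppie at 0.969, and St6gal2 to Slc38a1 at 0.989, Ajap1 at 0.977 and Gm6091 at 0.971. Slc38a1, an amino acid transporter gene, was far from silent, with 208, 239, 233 and 302 counts in WT and 195, 498 and 332 in *Smchd1*-null samples.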

How the data were processed

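The deposited files hold whole-number counts per gene and sample, not normalised, with gene lengths. The authors base-called with Guppy, aligned to mm10 with minimap2 2.17 and counted primary alignments with featureCounts on Gencode M23, with the runs of a sample summed. Counting was not stated to use strand, so counts of overlapping or antisense genes, paralogs and pseudogenes are uncertain. No column of the authors' own comparisons was used.

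Gene identifiers were matched to Gencode M21 (GRCm38), version ignored (55154 of 55335), and coordinates are 1-based. filterByExpr with default arguments kept 13305 genes. limma's voomWithQualityWeights with TMM scaling was fitted to all 7 samples with genotype as the only term. Its two-sided p-values were adjusted by Benjamini-Hochberg over all 13305 genes and are meant wherever no other tool is named, with thresholds of 0.25 and 0.05, and fold changes are *Smchd1*-null over WT. Replicates of a group differed by more than sampling noise in every pair. Chi-square per degree of freedom was 2.82 for *Smchd1*-null replicates 1 and 2 and 6.76 to 23.8 for the other pairs. Each was therefore counted as a sample, although such a spread does not show that they came from separate animals. The log-CPM prior count was 2. Intervals are exact Poisson or binomial, at 95%. RefSeq held promoter entries for 2 of the 4 genes. Software was R 4.3.3, limma 3.58.1, edgeR 4.0.16, DESeq2 1.42.0, blastn 2.17.0 and scipy 1.17.1, and the fits were tested on simulated data.

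The 4 genes and all lists were chosen with earlier results of these data known. Other genes were named by a rule: the nearest detected gene on each side, neighbours and list genes with an adjusted p under 0.25, the 2 most abundant genes of each list, the first 10 of the count pattern and the 3 of highest likeness; exceptions are stated, beside genes at 0 counts, Xist and Ddx3y. The planned exact multinomial test of counts within a genotype is not given, since these counts chose the genes. The fit was repeated with DESeq2, with edgeR's quasi-likelihood test, with unweighted voom, with other scalings and filters, with the batch share or the replicate block, after removal of a length trend and with each replicate left out. Some genes are not reported here by name.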

Additional observations from a re-analysis of the deposited data

Results flagged for a closer look

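A WT sample far from the other 3 (Dixon's gap test at 95%) was found in 2 of 27 groups of values compared, where chance gives about 1 in 20, or 1.35 of 27. The 4 genes were not among the 27, since their WT counts chose them. For Pot1b, the neighbour of St6gal2, WT replicate 2 was the lowest at 4.66 CPM, with the others at 5.62 to 5.77 CPM. For the summed germ cell and oocyte markers, WT replicate 4 was the lowest at 2.23 CPM, with the others at 3.91 to 4.22 CPM. The *Smchd1*-null group of 3 samples is too small for this comparison.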

How the results depend on the processing

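The 4 genes were higher in *Smchd1*-null samples under every alternative in which they could be fitted. This direction followed from their choice by these same counts, so it is no check of it, and only the sizes are described. With single replicates left out, their log2 fold changes were 2.91 to 4.46 for Nlrp5-ps, 2.49 to 2.86 for 9030624G23Rik, 2.87 to 4.68 for Ajap1 and 1.96 to 3.01 for St6gal2. Under the other alternatives they were 3.01 to 3.95, 2.35 to 2.96, 3.19 to 4.03 and 2.18 to 2.72. St6gal2 fell below the filter without *Smchd1*-null replicate 3, WT replicate 2 or WT replicate 4, and no member of the 4 had at least 10 counts in every sample. No neighbour passed an adjusted p of 0.25 under the other alternatives, and 0 to 2 did with single replicates left out. Of the list genes, 1 passed by limma, and 0 did by edgeR, by DESeq2, without sample weights, with all genes of at least 1 count, with the batch share as a covariate, with the length trend removed and at an adjusted p under 0.05. With at least 10 counts in every sample 4 did, and with single replicates left out 0 to 20. Over all genes, 144 passed by limma, 8 by edgeR and 32 by DESeq2, 10 without weights, 22 with all genes of at least 1 count, 346 with at least 10 counts in every sample, 74 with the batch share, and 1 to 3153 with single replicates left out. The cause was not tested.

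Samples that share a replicate number had correlations of their deviations of -0.04, 0.36 and 0.09 for replicates 1 to 3, and not every sample correlated best with its own number, so the numbers were not taken to pair the samples. With the replicate number as a block, the log2 fold changes were 3.95, 2.35, 3.19 and 2.44 for Nlrp5-ps, 9030624G23Rik, Ajap1 and St6gal2, with 0 neighbours, 4 list genes and 129 of all genes called.

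The genes with the count pattern numbered 180, and 363 when ordered by CPM, with 264 to 1199 when single replicates were left out. The mirror pattern numbered 81, 236 by CPM and 115 to 471 with single replicates left out. The fall of Smchd1 kept its direction and its side of the threshold throughout, at -1.86 to -2.25.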

Other observations

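Besides 2410018L13Rik on chromosome 12, with 424 counts in *Smchd1*-null replicate 2 and at most 1 in any other sample, 2 other genes had at least 100 counts in a single library and at most 1 in each of the others. They were the lincRNA Gm28497 on chromosome 1, with 306 counts, and Gm3543, with 141 counts, and all 3 were in *Smchd1*-null replicate 2. This count was made after the values were seen, and it has no test.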
